A study of Mus musculus with 3 samples.

Results

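The 39 genes described here encode enzymes of the folate and methionine cycles and of pathways linked to them. These pathways are choline oxidation, glycine cleavage, transsulfuration, purine synthesis, methyl transfer and cobalamin handling. The genes were taken from a fixed list of symbols. All 39 matched 1 protein-coding record each among the 21883 in the RefSeq table of assembly GRCm38.p6 (mm10). DNA methylation in epididymal fat was measured with MeDIP-seq: an antibody against methylated cytosine pulls down DNA fragments, these are sequenced, and stretches where they pile up are called as peaks. All animals were male C57BL/6J mice, 6 weeks old when the 10 weeks of feeding began and 16 weeks old at harvest. The normal diet (ND) supplied 10% of its energy as fat, the high-fat diet (HFD) 60%, and the third group (FAD) received the high-fat diet with 20 μg/mL folic acid in the drinking water. There was 1 library per diet. The number of mice behind each library was not given in the sources used here. Every difference below is therefore a difference between single libraries with no replicate check, and no test was run.

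Folate carries one-carbon units that are passed to homocysteine to make methionine, to dUMP to make thymidylate and to the purine ring. Methionine is activated to S-adenosylmethionine, the methyl donor of DNA methyltransferases, and the S-adenosylhomocysteine left behind is cleaved back to homocysteine. Folic acid given in water enters this network, and the liver is where most of the choline and betaine branch is active.

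For each gene, the peaks overlapping its record or the 2000 bp on either side were collected from each library's list. The windows spanned 6.88 to 198.2 kb (median 28.6 kb, against 21.2 kb over all protein-coding genes) on 16 chromosomes. They held 108 of 101532 ND peaks, 149 of 135124 HFD peaks and 112 of 95501 FAD peaks. Each peak carries the authors' score, at least 50 in every list and with a median of 101, 100.4 and 97.1 in ND, HFD and FAD. The scale of the score is not stated, so scores of different libraries are set side by side but not read as a change, and ranks are taken within a list. The HFD list is the longest, so counts are given also for lists of equal length, the 95501 peaks with the highest scores in each library. That step removes HFD peaks with scores under 73.2 and ND peaks under 54.8. A weaker peak can mean fewer cells with a methylated copy or less methylation in each, but need not mean either. These cannot be told apart from each other or from technical differences between libraries. Read depth is not known from peak lists.

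No peak overlapped a listed promoter window of these genes in any diet, where RefSeq gives one. RefSeq gives a promoter window, from 250 bases before to 50 after a start site, for 35 of the 39 genes, all but Mat1a, Aldh1l2, Cth and Nnmt. No such window of any of the 35 was overlapped by a peak in ND, HFD or FAD. In a random draw of genes, 0 of 35 would allow a share of up to about 8.57% (3 of 35, an approximate 95% limit). This list is fixed and not such a draw. Promoter peaks were rare in general: 2.53% of 17491 protein-coding genes had one in ND, 3.33% in HFD and 2.09% in FAD, so the count of 0 lies near the background. Counting every listed start site left the count at 0, against 2.90%, 3.90% and 2.46% of all genes. The enzyme promoters held a median of 16 CpG sites in 300 bases, against 13 over all protein-coding genes. At least 15 CpG sites were present in 20 of the 35 (57.1%, against 47.4% of all), and 5 or fewer in 3 of the 35 (8.57%, against 32.7%). Over all genes, promoters with 6 to 14 CpG sites had a peak most often, in 6.70% of cases in ND, 8.45% in HFD and 5.52% in FAD. Those with 15 or more had one in 1.16%, 1.39% and 1.13%.

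The upstream runs below differ in CpG content, with Cbs the densest of those shown and Ftcd, Gnmt and Amt the poorest. They do not span the range of the group, in which promoter windows held up to 37 CpG sites. The 300-base windows held 22 CpG sites for Cbs, 11 for Gnmt, 7 for Amt and 3 for Ftcd. The Gnmt run ends 47 bases before its start. The runs are the bases before the first listed start site that lie outside every gene record, from RefSeq in build GRCm38.p6. They are written 5′ to 3′ on the gene's strand with each CpG in capitals. Mtr is shown because it holds one of the strongest regions of the group in its gene body, and Ftcd because its region follows soon after the start. Cbs, Gnmt and Amt are shown because peaks lie close by, and Dmgdh because its run fills the gap between its start and that of Bhmt2 on the opposite strand. Whether this stretch serves both genes was not tested.
Mtr (chr13:12258200-12258363, strand -): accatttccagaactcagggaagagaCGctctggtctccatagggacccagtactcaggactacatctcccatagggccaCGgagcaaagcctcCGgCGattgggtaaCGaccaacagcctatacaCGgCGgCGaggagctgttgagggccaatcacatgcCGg
Ftcd (chr10:76575398-76575647, strand +): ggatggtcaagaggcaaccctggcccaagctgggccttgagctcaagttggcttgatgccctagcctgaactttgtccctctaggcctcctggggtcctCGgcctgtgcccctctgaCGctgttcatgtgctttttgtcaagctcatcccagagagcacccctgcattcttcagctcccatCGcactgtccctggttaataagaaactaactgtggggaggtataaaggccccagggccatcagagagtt
Cbs (chr17:31637234-31637455, strand -): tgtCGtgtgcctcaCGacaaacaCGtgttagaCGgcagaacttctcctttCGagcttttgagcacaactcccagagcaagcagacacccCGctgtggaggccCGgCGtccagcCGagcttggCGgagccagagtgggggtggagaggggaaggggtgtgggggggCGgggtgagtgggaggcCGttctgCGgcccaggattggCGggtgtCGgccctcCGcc
Dmgdh, shared with Bhmt2 (chr13:93674303-93674435, strand +): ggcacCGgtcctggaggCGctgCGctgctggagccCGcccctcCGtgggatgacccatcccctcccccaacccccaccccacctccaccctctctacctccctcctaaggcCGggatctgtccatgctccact
Gnmt (chr17:46729212-46729415, strand -): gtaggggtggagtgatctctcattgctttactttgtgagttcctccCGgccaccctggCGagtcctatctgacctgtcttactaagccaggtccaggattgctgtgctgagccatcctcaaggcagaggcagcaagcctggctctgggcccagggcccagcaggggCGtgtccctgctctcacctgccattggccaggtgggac
Amt (chr9:108296655-108296904, strand +): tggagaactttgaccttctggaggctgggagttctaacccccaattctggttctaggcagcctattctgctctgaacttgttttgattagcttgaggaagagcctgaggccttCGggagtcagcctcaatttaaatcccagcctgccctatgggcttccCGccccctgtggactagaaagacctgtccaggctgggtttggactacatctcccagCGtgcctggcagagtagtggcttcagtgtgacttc

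These runs held 9 CpG sites in 164 bases for Mtr, 3 in 250 for Ftcd, 16 in 222 for Cbs, 6 in 133 for the stretch between Dmgdh and Bhmt2, 3 in 204 for Gnmt and 3 in 250 for Amt. The nearest peaks to the Cbs start lay 965 bp away in ND, 948 bp in HFD and 977 bp in FAD. For Ftcd, whose run is CpG-poor, they lay 716, 795 and 729 bp away, inside the gene, and for Gnmt 549, 546 and 598 bp away. For Amt the distances were 730 bp in ND, 580 bp in HFD and 23048 bp in FAD. The ND and HFD peaks behind them scored 51.7 and 52.7, near the lowest listed score of 50, and neither is among the equal-length peaks. For Dmgdh the nearest peaks lay 15119, 10405 and 14084 bp from the start. Over the 35 genes the median distance from start to nearest peak was 6024 bp in ND, 6003 bp in HFD and 7508 bp in FAD, against 7832, 5603 and 8605 bp over all protein-coding genes.

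**Figure D1:**
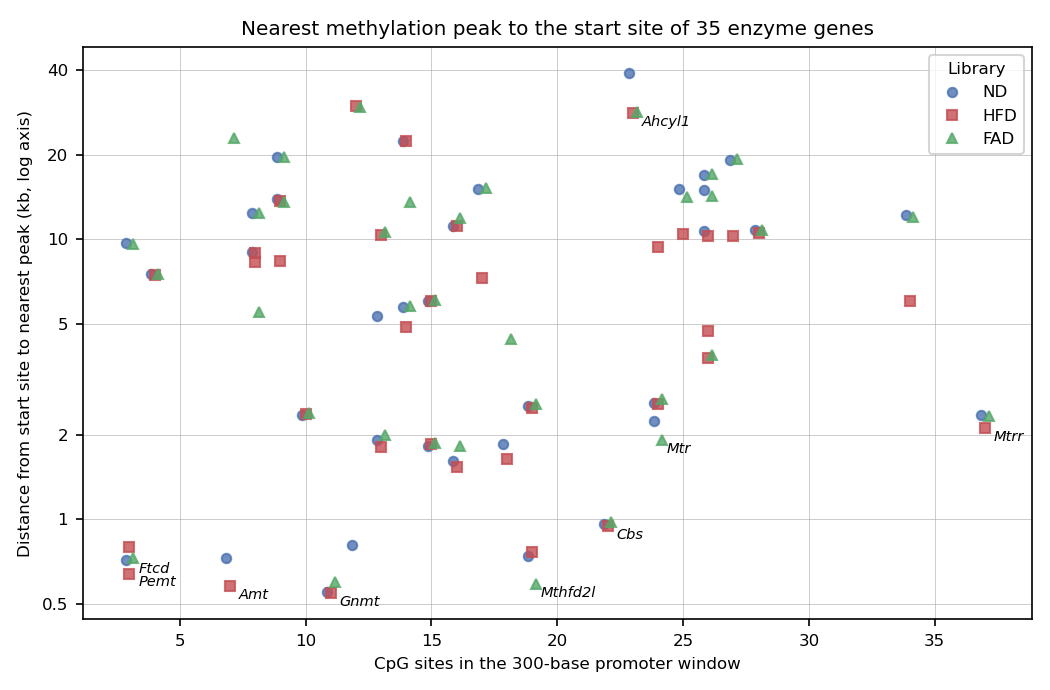
Distance in kb (log axis) from the first listed start site to the nearest peak of each library, against the number of CpG sites in the 300-base promoter window, for 35 enzyme genes with 1 point per gene and library. No point lies under 0.5 kb, and the closest belong to Gnmt, Amt, Mthfd2l and Pemt.

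Within 2000 bp before to 500 bp after a start site, peaks were found at 5 of the 35 genes in ND (10.7% of all genes), 6 in HFD (15.3%) and 4 in FAD (9.57%), shares of 14.3%, 17.1% and 11.4% that lie near those of all genes. Gnmt and Mthfd2l were marked there in all 3 libraries. Amt was marked in ND and HFD and Mmab in HFD and FAD. Cbs and Mthfsl were marked in ND, Pemt and Chdh in HFD and Mtr in FAD. The weak FAD peak at Mtr overlaps an ND peak that falls outside the 2000 bp limit, so that mark rests on the window's edge. The ND peak nearest to the Mmab one also lies outside the window. The Chdh peak, 272 bp from an alternative start inside the gene, was the closest of all. Its score was 68.4, and it is not among the equal-length HFD peaks. With equal-length lists 4 genes were marked there in each library, against 10.2%, 11.3% and 9.57% of all genes. With the 50% of peaks that scored highest in each list it was Gnmt and Mthfd2l in every library, 2 of 35, against 5.42%, 8.07% and 4.93%. The reading depends on the window. Within 2000 bp on either side of the first listed start, 10, 10 and 8 of the 35 genes had a peak in ND, HFD and FAD. These shares of 28.6%, 28.6% and 22.9% were above the 15.4%, 21.2% and 13.5% of all genes.

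Of the peaks in the windows, 98 of 108 in ND, 135 of 149 in HFD and 102 of 112 in FAD lay wholly inside the gene record, or 90.7%, 90.6% and 91.1%. The records make up 90.8% of the window length, and over all protein-coding genes 91.6%, 91.2% and 92.0% of window peaks lay inside the record, so these shares are near the background. Among peaks outside it, 3 in ND, 6 in HFD and 4 in FAD fell in the record of a named neighbour: Slc4a5 beside Mthfd2, Nicn1 beside Amt, Cacna1d beside Chdh, Pex6 beside Gnmt and Mvk beside Mmab. At least 1 peak was present at 33 of 39 genes in ND (64.5% of all protein-coding genes), 33 in HFD (71.4%) and 32 in FAD (61.9%). These shares of 84.6%, 84.6% and 82.1% were above the background, and the windows of these genes were also longer. With equal-length lists 32 genes were marked in each library, against 63.5%, 64.8% and 61.9% of all. A peak in every library was found at 30 genes (76.9%, against 57.4% of all) and in no library at 4 (10.3%, against 25.7%), and with equal-length lists at 29 (against 55.5%) and 4 (against 28.9%). Per 10 kb of window there were 0.639 peaks in ND, 0.882 in HFD and 0.663 in FAD, against 0.448, 0.617 and 0.412 over all protein-coding windows. Peaks covered 56.4, 91.2 and 48.8 kb of the windows, or 3.34%, 5.40% and 2.89% of their length. Over all protein-coding windows the covered shares were 2.42%, 3.87% and 1.95%. Peak width differed over the whole lists, with medians of 507 bp in ND, 587 bp in HFD and 447 bp in FAD. Just inside the 2000 bp limit lay an FAD peak 1835 bp from Mtr (score 54.8), and just outside lay the ND peak that overlaps it, 2162 bp from Mtr (54.0). Outside the Mtrr limit stood a peak of every library, at 2362 bp in ND (80.2), 2124 bp in HFD (116) and 2342 bp in FAD (109).

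**Figure D2:**
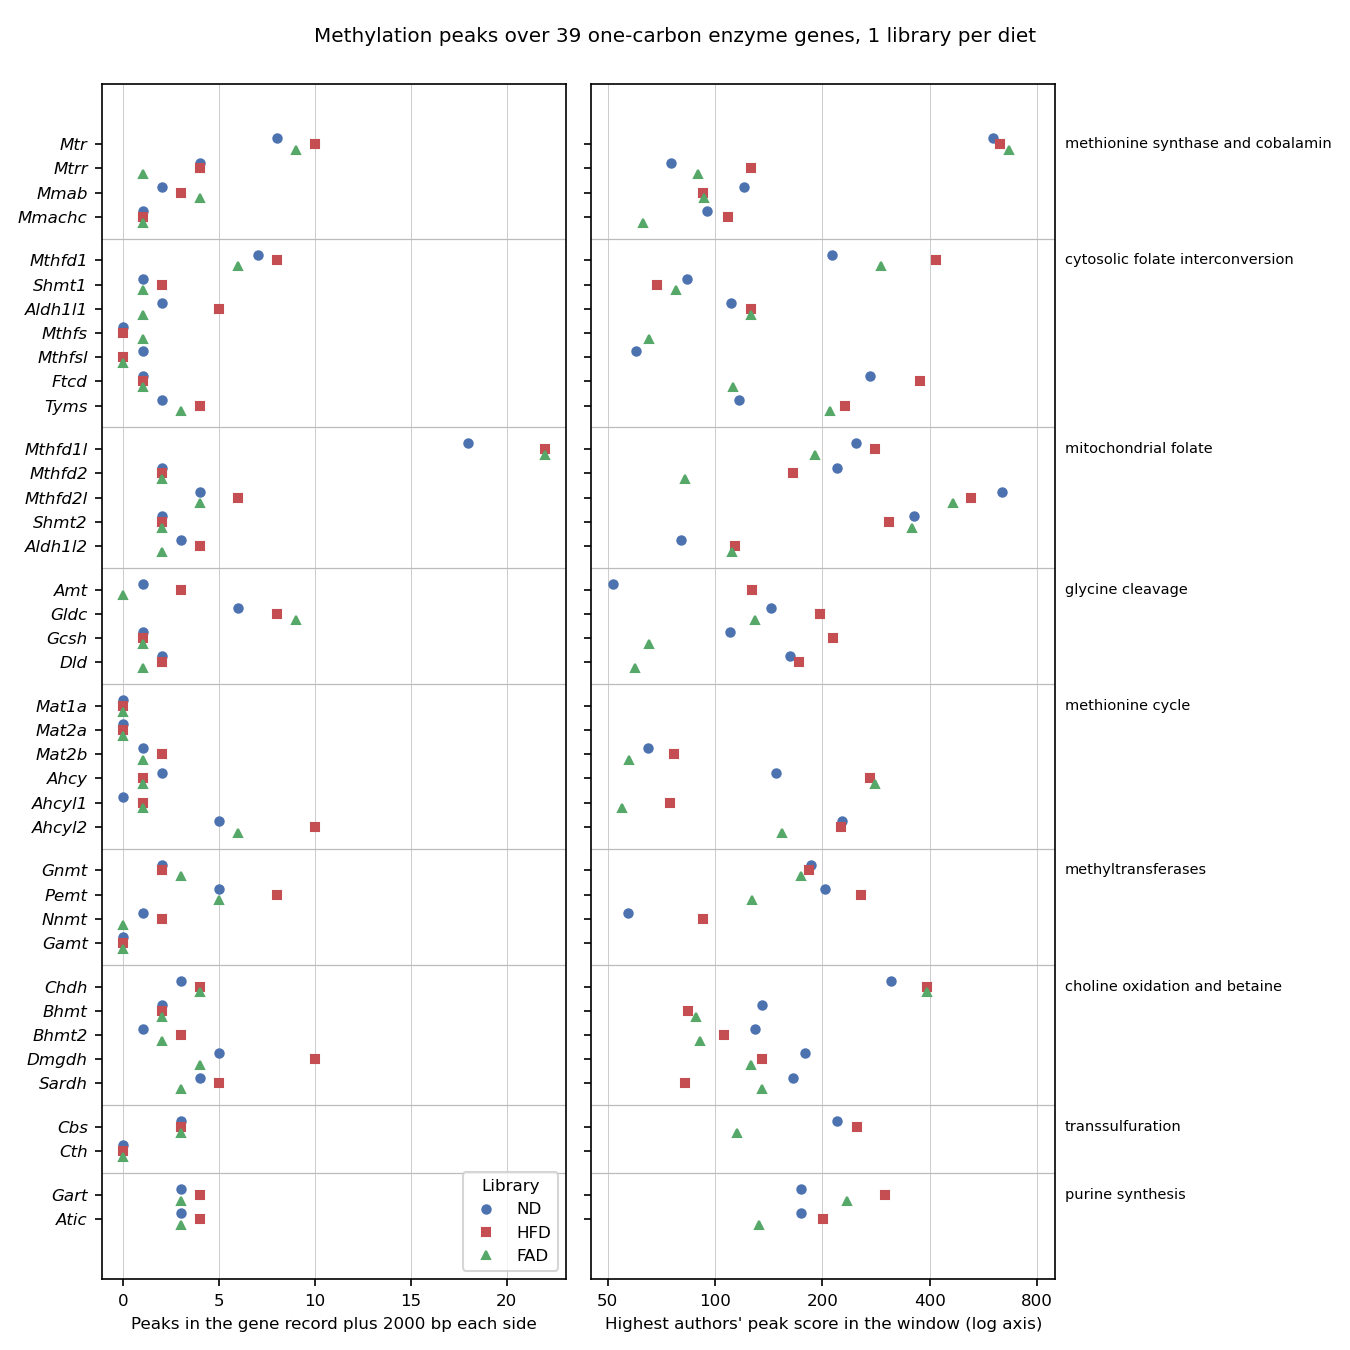
Left, number of peaks in each gene's window by library; right, the highest authors' score in that window (log axis, scale of the score not stated), with genes ordered by role and 1 point per library. Mthfd1l has the most peaks (18, 22 and 22), and the right panel is empty for Mat1a, Mat2a, Gamt and Cth, which have none.

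Methionine synthase, the enzyme that moves the methyl group of folate onto homocysteine, held the region with the highest score of the group in HFD and in FAD; in ND a region of Mthfd2l scored higher. Mtr (chromosome 13, 12181331 to 12258199) held 8 peaks in ND, 10 in HFD and 9 in FAD. The region at 12202980 to 12204074, deep in the gene body, scored 602 in ND, 630 in HFD and 668 in FAD. These scores exceed or equal those of 98.6%, 99.1% and 99.5% of the peaks in their lists. Of its 12 regions 5 were in all 3 lists. The other 7 scored at most 120.4. Mtrr, the reductase that keeps methionine synthase active, held 4 peaks in ND, 4 in HFD and 1 in FAD. The region kept in FAD (score 89.8) was in all 3 lists, while 2 weak regions, with ND scores of 75.3 and 56.1, were in ND and HFD only. The equal-length lists held 4, 2 and 1 Mtrr peaks, so FAD was lowest both ways within the window. Just outside the window every library had a further peak, scoring 80.2 in ND, 116 in HFD and 109 in FAD.

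Mmab and Mmachc handle cobalamin, of which 1 form is the cofactor of methionine synthase. Mmab had 2, 3 and 4 peaks in ND, HFD and FAD, and a region at 114445571 to 114446475 of chromosome 5 was in HFD (92.4) and FAD (88.2) only. That region lies in the record of Mvk, its neighbour. An ND peak (89.4) stood 383 bp from the HFD one, just outside the window. Mmachc had 1 region, in all 3 lists, with scores of 95.2, 109 and 62.7.

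Among the cytosolic folate enzymes, Mthfd1, the trifunctional enzyme that interconverts folate forms, had 7 peaks in ND, 8 in HFD and 6 in FAD. Its strongest region (chromosome 12, 76313491 to 76313852) scored 212, 418 and 292 in ND, HFD and FAD. The HFD peak at 76266334 to 76266651 scored 206, overlapped an ND peak of 101 and had no FAD peak over it, although an FAD peak stood 447 bp away. Among regions not in all 3 lists it was the 1 with a peak in the highest 20% of any list by score. Mthfd1 also held the highest-scoring peak found in ND alone (76302580 to 76303236, score 87.4).

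Ftcd, which channels the histidine breakdown product into folate, had 1 region, 0.7 to 0.8 kb after its start, in all 3 lists with scores of 272 in ND, 376 in HFD and 113 in FAD. They rank at 89.4%, 94.4% and 59.7% of their lists, the FAD peak standing lowest in its own list. Tyms, the thymidylate synthase gene, had 2, 4 and 3 peaks, and the region near its far end scored 116, 231 and 210.

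Aldh1l1, which releases the one-carbon unit of formyl-folate as carbon dioxide, had 2 peaks in ND, 5 in HFD and 1 in FAD. All 3 libraries shared the region at 90570473 to 90571146 of chromosome 6, with scores of 111, 112 and 126. A region just past the end of the gene was held by ND (75.8) and HFD (126) but not FAD. The other 3 HFD peaks scored 50.9, 65.9 and 69.5, under the limit of the equal-length list, which leaves 2, 2 and 1.

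Shmt1, the cytosolic serine hydroxymethyltransferase, had 1 shared region with scores of 83.3, 68.9 and 77.8, and a second HFD peak at the lowest listed score of 50. Both HFD peaks fall under the equal-length limit, so with such lists Shmt1 counts as unmarked in HFD although peaks are called there. Mthfs and Mthfsl are close copies of one another, and the second promoter windows that RefSeq lists for them were identical in 298 of 301 aligned positions. How reads that fit both copies were placed was not given in the sources used here, so their peaks are uncertain. Mthfsl had 1 peak, in ND (60.2), 808 bp before its nearest start, and the nearest HFD and FAD peaks lay 28555 and 28547 bp away. Mthfs had 1 peak, in FAD (65.2), and the nearest ND and HFD peaks lay 36014 and 35940 bp away. Both peaks were weak, with 12.7% and 19.2% of their lists at or below them.

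The mitochondrial folate enzymes carried more regions than any other role, 45 of 174, of which 30 lay in Mthfd1l, the longest gene. Their windows were also the longest, at 377 kb, and by length this role was not the densest. Per 10 kb it held 0.769, 0.955 and 0.849 peaks in ND, HFD and FAD. The methionine synthase and cobalamin genes held 1.13, 1.35 and 1.13, and the purine synthesis genes 1.07, 1.43 and 1.07. Mthfd1l, which releases formate from mitochondria, held 18, 22 and 22 peaks. Of its regions 12 were in all 3 lists, 3 in ND alone, 3 in HFD alone and 5 in FAD alone. The highest FAD-only score among all 39 genes lay here (chromosome 10, 4015458 to 4015690, score 105), in a peak 233 bp wide, below the 286 bp that bounds the narrowest decile in the FAD list.

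Mthfd2l, one of the mitochondrial dehydrogenases, held 3 strong regions in every library. The first lies before the gene (chromosome 5, 90929520 to 90930607), with scores of 639 in ND, 506 in HFD and 322 in FAD, and its peaks ended 738, 767 and 589 bp from the start site. The second, in the gene body, scored 369, 521 and 464, and the third, near its far end, 295, 296 and 275. One more shared region scored 169, 168 and 83.7, and HFD alone had weak peaks of 55.5 and 66.8. Shmt2, which makes the one-carbon unit from serine in mitochondria, had 2 regions in all 3 lists, the stronger with scores of 362, 308 and 357. Peaks covered 17.9% of its 9.32 kb window in ND, 28.1% in HFD and 16.1% in FAD. Mthfd2, the paralogue induced in growing cells, had 2 shared regions, and its intragenic one scored 220, 98.2 and 82.3. Aldh1l2, the mitochondrial counterpart of Aldh1l1, had 3, 4 and 2 peaks with no score above 114.

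The glycine cleavage system splits glycine and hands its carbon to folate. Amt, its aminomethyltransferase, had 1 peak in ND, 3 in HFD and none in FAD. The HFD peak inside the gene (chromosome 9, 108300987 to 108301298) scored 127, 4812 bp from the nearest peak of ND and 18655 bp from that of FAD. Its width of 312 bp is below the 367 bp that bounds the narrowest decile in the HFD list. Before the gene, within the record of Nicn1, stood a weak region of ND (51.7) and HFD (52.7) and an HFD peak of 88.8. The equal-length lists held 0, 2 and 0 peaks in the whole Amt window, the 2 being the HFD peaks of 127 and 88.8. Gldc, the glycine decarboxylase, showed the opposite order for FAD, with 6 peaks in ND, 8 in HFD and 9 in FAD. Its 5 shared regions scored up to 143, 196 and 130. FAD alone held peaks of 64.6, 83.2 and 58.7, with the nearest HFD peaks 2178, 3942 and 11805 bp away. In equal-length lists Gldc had 6, 6 and 9. Gcsh and Dld, the carrier protein and the lipoamide dehydrogenase, shared 1 region each across all 3 lists, scoring 110, 214 and 65.2 at Gcsh and 162, 171 and 59.7 at Dld. A second, weak Dld region was in ND (61.3) and HFD (60.2).

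**Figure D3:**
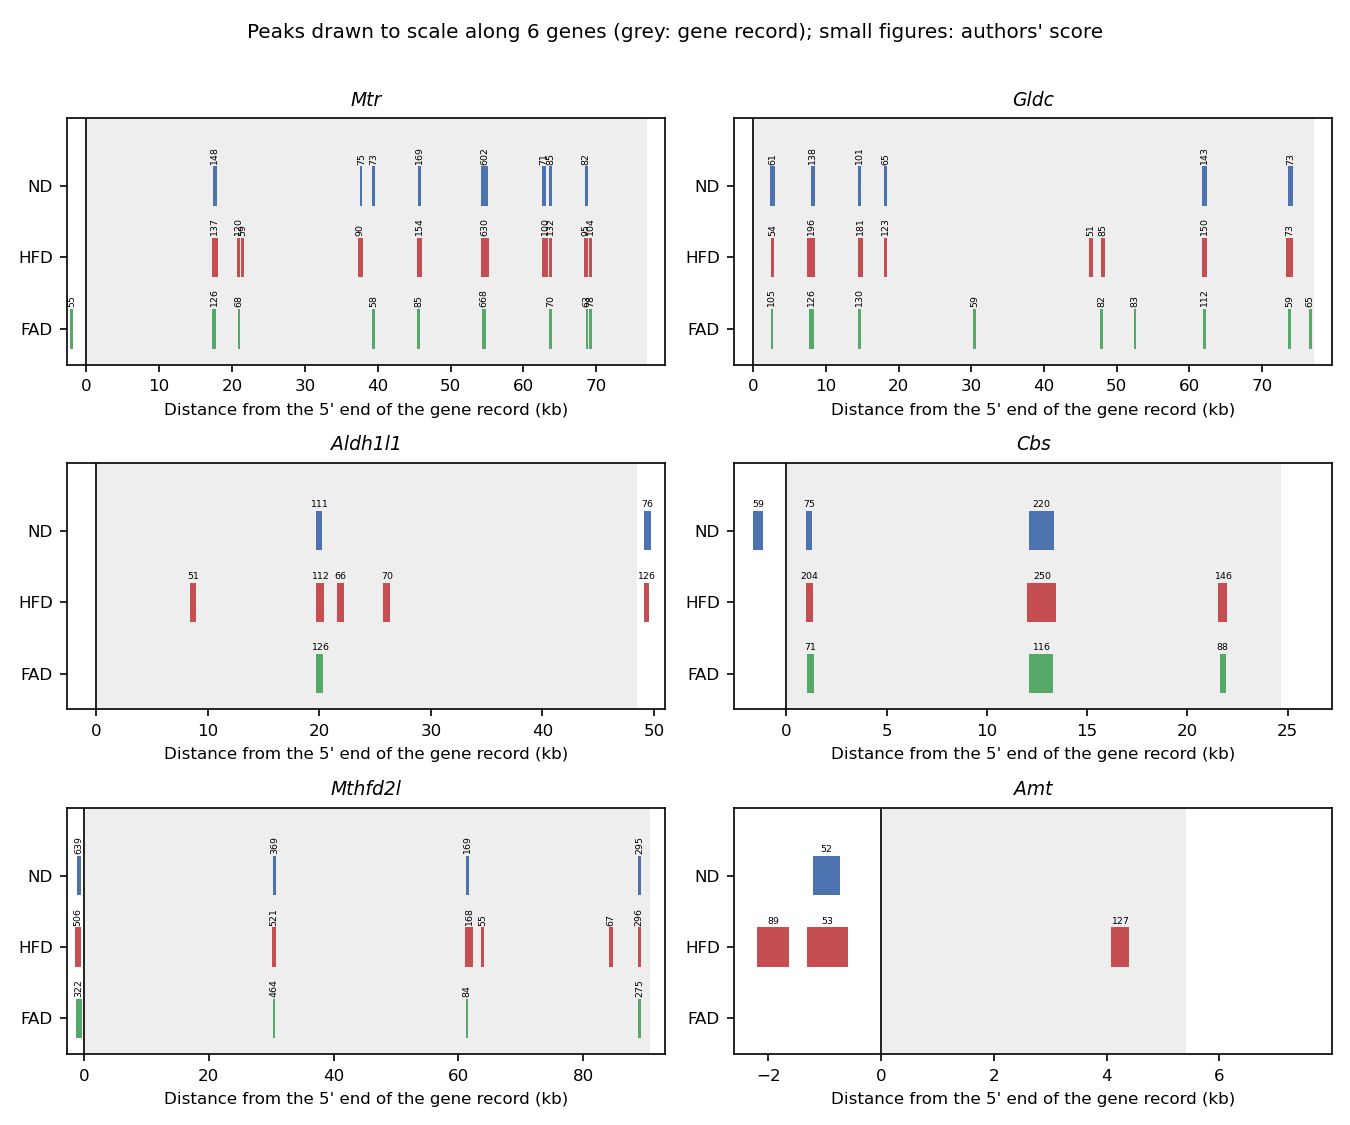
Peaks of each library drawn to scale along 6 genes, by distance in kb from the 5′ end of the gene record (grey), with the authors' score above each peak. The strong Mtr and Mthfd2l peaks line up across ND, HFD and FAD, Amt has no FAD peak, and 3 of the Gldc peaks in FAD have no partner.

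Methionine adenosyltransferases make S-adenosylmethionine. Mat1a, the form of adult liver, and Mat2a, the form of other tissues, had no peak in any library. The nearest peaks to the Mat2a window lay 5099 bp away in ND, 4021 bp in HFD and 5182 bp in FAD. Mat1a stood in a longer gap, of 43320, 22210 and 42224 bp. Mat2b, the regulatory subunit, had a weak shared region (65.0, 54.6 and 57.4) at its record's upstream end and an HFD-only peak past the other end (76.5). The start site listed for Mat2b lies further inside the record. The nearest ND, HFD and FAD peaks were 2531, 2502 and 2573 bp from it, so the shared region was not in the promoter window. Ahcy, which cleaves S-adenosylhomocysteine, had 1 shared region (chromosome 2, 155063305 to 155064142) with scores of 148, 271 and 282, and a second peak in ND alone (70.0).

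Ahcyl1, a relative of Ahcy that regulates other proteins, was the 1 gene with peaks in both high-fat libraries and none in ND. Its region (chromosome 3, 107667679 to 107668422) scored 74.5 in HFD and 54.8 in FAD, low in both lists, and ND had no peak within 52931 bp of the HFD one. Ahcyl2, the longer paralogue, had 5, 10 and 6 peaks, and 5, 5 and 6 with equal-length lists. Within it, 2 regions were in HFD and FAD only, with FAD scores of 145 and 68.1, and 1 was in ND (132) and HFD (54.0) only.

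The methyltransferases that consume S-adenosylmethionine differed widely. Gnmt, the glycine N-methyltransferase that disposes of surplus S-adenosylmethionine in liver, had the most densely covered window: 23.5% of 7.55 kb in ND, 29.8% in HFD and 21.2% in FAD. One of its shared regions lies before the gene (158, 175 and 140), and the other lies past its end in Pex6 (186, 183 and 175). Pemt, which makes phosphatidylcholine by methylation, had 5, 8 and 5 peaks with 5 shared regions, the one with the highest HFD score standing at 94.3, 256 and 75.7. Its 3 further HFD peaks scored 58.7, 53.4 and 70.4, and with equal-length lists the count was 5 in each library.

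Nnmt, the nicotinamide methyltransferase that is abundant in fat, had 1 peak in ND (57.1), 2 in HFD (52.4 and 92.6) and none in FAD. The ND peak and the HFD peak of 92.6 overlap, and the nearest FAD peak lay 31827 bp from the latter. Gamt, the creatine-forming methyltransferase, had none in its 6.88 kb window, though peaks of all 3 libraries stood 846, 851 and 936 bp beyond it.

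In choline oxidation, Chdh, the choline dehydrogenase, had a strong shared region (chromosome 14, 30031169 to 30031999) with scores of 311 in ND, 393 in HFD and 394 in FAD. A region beyond its end, in Cacna1d, was in HFD (118) and FAD (65.9), and a weak one near the end was in ND (73.3) and FAD (65.5). Bhmt and Bhmt2, which remethylate homocysteine with betaine or S-methylmethionine as donor, had 2, 2 and 2 and 1, 3 and 2 peaks. Dmgdh, which oxidises the product dimethylglycine, had 5 peaks in ND, 10 in HFD and 4 in FAD. It held the highest-scoring HFD-only peak of the group (chromosome 13, 93708647 to 93708948, score 136, 302 bp wide), 5308 bp from the nearest ND peak and 18564 bp from the nearest FAD peak. This peak also lies in the record of AW495222. The equal-length lists held 5, 4 and 4 Dmgdh peaks. Sardh, the sarcosine dehydrogenase, had 4, 5 and 3 peaks and 2 shared regions.

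In transsulfuration, Cbs, which joins homocysteine and serine, had 3 peaks in each library. Its wide central region (chromosome 17, 31623767 to 31625217) scored 220, 250 and 116, and the region soon after the start 75.5, 204 and 71.0. The third peak differed: ND had one before the gene (59.1), while HFD (146) and FAD (87.7) shared one near its far end. Cth, the next enzyme, had no peak in any library, and the nearest lay 14392, 14600 and 14621 bp from its window. In purine synthesis, Gart and Atic each had 3, 4 and 3 peaks. The region across the far end of Gart scored 175, 300 and 235, and Atic had 3 shared regions.

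The comparison of HFD with ND asks where dietary fat goes with a difference at these genes. Ahcyl1 had peaks in HFD but none in ND, 1 of 39 (8.81% of all protein-coding genes), and Mthfsl the reverse, 1 of 39 (1.93%). With equal-length lists Ahcyl1 and Amt were marked in HFD only of the pair, 2 of 39 (5.70% of all), and Mthfsl and Shmt1 in ND only, 2 of 39 (4.40%). By number of peaks, 22 of 39 genes (56.4%) had more in HFD than in ND, against 41.6% of all genes, and 2 had fewer, against 7.79%. With equal-length lists the balance turned: 5 genes had more in HFD (22.7% of all) and 10 had fewer (19.0% of all), while 19 had as many (27.6%, against 10 and 23.9% in the whole lists). The 5 were Ahcyl1, Amt, Mthfd1l, Mtr and Bhmt2. The total of HFD peaks was 1.38 times that of ND over these genes and 1.38 times over all protein-coding windows, and 0.962 and 1.04 times with equal-length lists. The turn holds for peak number only. By covered length HFD stood at 1.62 times ND in the whole lists and at 1.19 times with equal-length lists (64.7 against 54.4 kb). Over all protein-coding windows HFD peaks also covered more, 3.87% against 2.42% in ND, and 2.88% against 2.29% with equal-length lists.

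For FAD against HFD, which asks what goes with folic acid on the same diet, Mthfs was marked in FAD and not in HFD, 1 of 39 (1.39% of all genes). Amt and Nnmt had peaks in HFD but none in FAD, 2 of 39 (10.9% of all genes). With equal-length lists Mthfs and Shmt1 were marked in FAD only of the pair (3.75% of all genes), and Amt and Nnmt again in HFD only (6.71%). More peaks stood in FAD at 4 genes (6.02% of all), Mthfs, Mmab, Gnmt and Gldc, fewer at 19 (45.9%) and as many at 11 (20.9%). With equal-length lists there were 12 (17.5%), 4 (24.3%) and 18 (26.8%), the 4 being Aldh1l1, Nnmt, Amt and Mtrr. These 4 also had fewer peaks in FAD than in HFD in the whole lists. The ratio of FAD to HFD peaks was 0.752 over these genes and 0.668 over all, and 1.12 and 0.944 with equal-length lists. By covered length it was 0.536 in the whole lists and 0.755 with equal-length lists (48.8 against 64.7 kb). FAD peaks thus covered less than HFD peaks both ways, as they did over all protein-coding windows. There FAD peaks covered 1.95% against 3.87% in HFD, and 1.95% against 2.88% with equal-length lists.

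FAD against ND differs in both fat and folic acid. Ahcyl1 and Mthfs were marked in FAD and not in ND, 2 of 39 (4.03% of all genes), and Mthfsl, Nnmt and Amt in ND and not in FAD, 3 of 39 (6.70%). With equal-length lists the same Ahcyl1 and Mthfs were marked in FAD only of the pair (4.51% of all genes), and Nnmt and Mthfsl in ND only (6.16%). Peaks were more numerous in FAD at 11 genes (16.6% of all), fewer at 11 (26.4%) and as many at 13 (25.5%), and with equal-length lists at 12 (19.4%), 9 (22.6%) and 13 (26.0%). The 3 comparisons share libraries, so their counts are not independent of each other.

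Which genes differ depends on how strong a peak must be. With the 50% of peaks that scored highest in each list, 25 genes were marked in ND (48.5% of all), 26 in HFD (57.1%) and 20 in FAD (46.1%). HFD without ND then held for Mmachc, Amt, Aldh1l2 and Mtrr (4 of 39, against 11.0% of all), and ND without HFD for Sardh, Mmab and Bhmt (3, against 2.37%). FAD without HFD held for Sardh (1, against 1.89%), and HFD without FAD for Mmachc, Mthfd2, Gcsh, Amt, Dld, Mtrr and Bhmt2 (7, against 12.9%). FAD without ND held for Aldh1l2 (1, against 4.79%), and ND without FAD for Mmab, Mthfd2, Gcsh, Dld, Bhmt and Bhmt2 (6, against 7.14%). Amt alone among these genes was marked in HFD and unmarked in FAD in the whole, equal-length and highest-scoring lists. Counting only peaks that touch the gene record left 29 genes in ND (59.7% of all), 32 in HFD (66.2%) and 31 in FAD (57.3%). HFD without ND then held for Ahcyl1, Amt and Mat2b (3, against 8.28%), and ND without HFD for 0 (against 1.75%). FAD without HFD held for Mthfs and Gnmt (2, against 1.37%), and HFD without FAD for Nnmt, Amt and Mat2b (3, against 10.3%). FAD without ND held for Ahcyl1, Mthfs and Gnmt (3, against 3.86%), and ND without FAD for Nnmt (1, against 6.27%). The Mat2b entries rest on the record's edge: the ND and FAD peaks of its shared region lie 10 and 52 bp outside. The Gnmt entries rest on 1 FAD peak with a score of 51.3.

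Peaks of the 3 lists that overlap were joined into 174 regions over the 39 genes. All 3 lists held 72 of them (41.4%), against 39.1% of the regions over all protein-coding windows, and at their median 64.0% of ND peaks, 68.0% of HFD peaks and 55.9% of FAD peaks scored no higher. For regions in 1 list the same medians were 12.7% in ND, 15.2% in HFD and 18.5% in FAD. HFD and FAD shared 22 regions that ND lacked (12.6%, against 8.70% over all), ND and HFD shared 23 (13.2%, against 12.2%) and ND and FAD 4 (2.30%, against 2.10%). ND alone held 9 (5.17%, against 7.46%), HFD alone 31 (17.8%, against 24.6%) and FAD alone 13 (7.47%, against 5.81%). Of the regions in 1 list, those of ND scored 50.1 to 87.4, those of HFD 50 to 136 and those of FAD 51.3 to 105. By contrast 8 regions, in Mtr, Mthfd1, Mthfd1l, Mthfd2l, Shmt2 and Chdh, stood in the highest 20% of every list, a limit chosen after seeing the data. With equal-length lists HFD alone held 7 of 147 regions (4.76%, against 12.8%), HFD and FAD together 19 (12.9%, against 7.67%) and FAD alone 18 (12.2%, against 11.1%). All 3 held 63 (42.9%, against 42.2%), ND and HFD 11 (7.48%, against 8.93%), ND and FAD 11 (7.48%, against 5.68%) and ND alone 18 (12.2%, against 11.7%). With the highest-scoring 50% of peaks there were 87 regions: 30 of all 3 lists (34.5%, against 38.3%), 11 of ND and HFD (12.6%, against 11.8%) and 6 of HFD and FAD (6.90%, against 8.87%). ND and FAD shared 2 (2.30%, against 2.32%), and 8 were in ND alone (9.20%, against 6.70%), 23 in HFD alone (26.4% in both) and 7 in FAD alone (8.05%, against 5.61%). Asking for a reciprocal overlap of 50% gave 8 regions of ND and FAD (4.26%, against 3.92%).

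**Figure D4:**
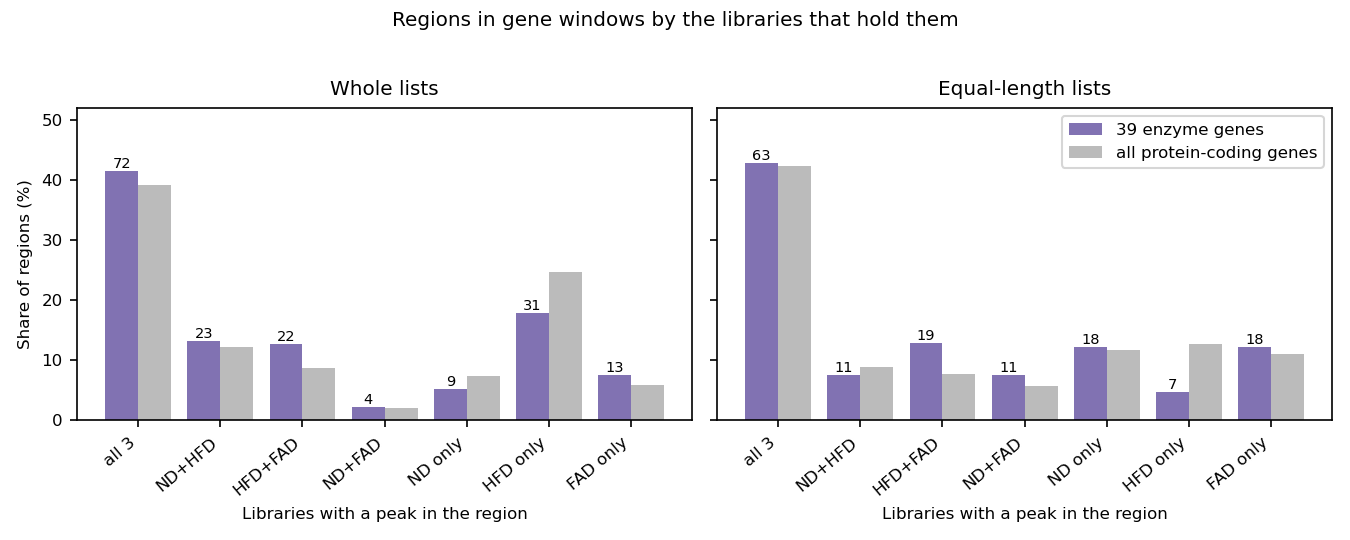
Share of regions (%) by the libraries that hold a peak in them, for the 39 enzyme genes (purple, number of regions above each bar) and for all protein-coding genes (grey), in whole lists and in equal-length lists. Regions of all 3 libraries are the most frequent in both panels, and HFD-only regions are fewer than over all genes, at 31 of 174 and 7 of 147.

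Genes of neighbouring pathways, chosen by function with earlier results of these data known, numbered 53. Of these, 36 were marked in ND, 43 in HFD and 35 in FAD (67.9%, 81.1% and 66.0%, against 64.5%, 71.4% and 61.9% of all genes). With equal-length lists the counts fell to 38 in HFD and stayed at 36 in ND and 35 in FAD. These are 67.9% in ND, 71.7% in HFD and 66.0% in FAD, against 63.5%, 64.8% and 61.9% of all genes. HFD without ND held for 9 of them (17.0%, against 8.81% of all genes), 5 of which, Gmps, Paics, Impdh2, Pfas and Prps2, belong to the 11 further purine synthesis genes. With equal-length lists it held for 5 (9.43%, against 5.70%), of which Gmps, Pfas and Prps2 are purine genes. Srm and Tcn2 were marked the other way, 2 of 53 (3.77%, against 1.93%). For FAD against HFD, 9 were marked in HFD only (17.0%, against 10.9% of all genes), among them the folate transporter gene Slc46a1 (HFD score 153). The folate receptor gene Folr2 was the 1 marked in FAD only (77.8), a share of 1.89%, against 1.39%. With equal-length lists these were 5, Slc46a1 included (9.43%, against 6.71%), and 2, Folr2 and Slc25a32 (3.77%, against 3.75%). The 3 genes of serine synthesis (Phgdh, Psat1 and Psph), which supply the substrate of Shmt1 and Shmt2, and the serine-consuming Sds and Srr were each marked in every library.

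Peak lists hold no RNA levels, so the tissue label could not be checked against expressed markers. Of 8 adipocyte marker genes 3, 7 and 5 had a peak in ND, HFD and FAD, of 6 leukocyte markers 3, 5 and 3, of 4 endothelial markers 4 in each, of 4 mesothelial and fibroblast markers 3 in each and of 4 epididymal markers 0, 2 and 0, where 64.5%, 71.4% and 61.9% of all genes had one. With equal-length lists HFD fell to 6 adipocyte, 4 leukocyte and 1 epididymal marker, and ND and FAD kept their counts. The part of cell composition in the values above was not tested.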

How the data were processed

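MeDIP-seq peaks of epididymal fat were analysed for 3 libraries, 1 per diet, grouped by the labelled diet. The deposited files are peak lists with a score per peak, called per library by the authors; build mm10 is named in the submitters' processing notes, and the peak names carry the prefix MACS. Caller settings, control, aligner, depth and duplicate removal were not given in the sources used here.

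Gene records came from RefSeq (GRCm38.p6), promoter sequences from RefSeq in the same build. Overlap required 1 bp, and positions are 1-based. A region joins all overlapping peaks of the 3 lists and counts every list that takes part, also where a peak reaches beyond the window. The table of start sites gave strand for 35 genes, and the start window (2000 bp before, 500 bp after) was used for these. Window counts equalled those of bedtools 2.31.1 for all 21883 genes in each library, after a check on simulated peaks. All members are described, with more detail for genes marked in some libraries only, without peaks, with the highest scores, with the most peaks or with the strongest peaks of 1 list. Members and lists were chosen with earlier results of these data known. Python 3.11.15, numpy 2.4.6, pandas 2.3.3 and matplotlib 3.10.9 were used.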

Additional observations from a re-analysis of the deposited data

How the results depend on the processing

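With 1 library per diet, no result has a replicate check. No paired analysis was possible because each diet has 1 library. Of 103 values recomputed under other settings, 71 stayed within 1.5 times the reported one and 32 did not; the cause was not tested beyond the fewer peaks or shorter windows that each setting uses. The start-site alternatives, and the equal-length values of the neighbouring pathways, were chosen after seeing the data. With equal-length lists, genes marked in HFD and not in ND numbered 2, in ND and not in HFD 2, and in FAD and not in HFD 2. Regions of ND and HFD numbered 11, of ND and FAD 11, of ND alone 18 and of HFD alone 7. With the 50% of peaks that scored highest, 20 genes had a peak in FAD. Genes marked in HFD and not in ND numbered 4, ND and not HFD 3, HFD and not FAD 7, FAD and not ND 1, and ND and not FAD 6. Peaks over the genes numbered 51, 70 and 45 in ND, HFD and FAD, covering 29.5, 47.3 and 21.9 kb, and start-site peaks 2 in each. Regions of all 3 lists numbered 30, of ND and HFD 11, of HFD and FAD 6, of ND and FAD 2 and of FAD alone 7. In the record alone, HFD and not ND gave 3 genes, ND and not HFD 0, FAD and not HFD 2 and ND and not FAD 1. A reciprocal overlap of 50% gave 8 regions of ND and FAD. A window widened to 5000 bp per side, peak midpoints and absence within 5000 bp of the window left every count of marked genes within 1.5 times.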
